A study of Homo sapiens with 4 samples.

Results

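A set of 9 bone-acting genes is described here in PC3 cells, a human prostate cancer cell line established from a bone metastasis. They are the 9 rows of the deposited count table named PTHLH, SPP1, IBSP, TNFRSF11B, TNFSF11, RUNX2, EDN1, NOG and CXCR4, out of 60544 genes, and they were picked by name for their known roles in bone, with earlier results of these data known. The study asked what loss of METTL3, the enzyme that deposits N6-methyladenosine (m6A) on messenger RNA, does in this line. Poly(A) RNA was sequenced from 2 libraries labelled shNC, the control arm, and 2 labelled sh812. The labels do not spell out what sh812 targets, and it was taken for the METTL3 knockdown since shNC is the control. Both arms are PC3 cells grown in the same medium, and the labels name no other treatment. The labels give a single name for the knockdown and do not say whether the 2 libraries of an arm came from separate cultures, so a p-value measures only the spread between these libraries.

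Cells of a prostate tumour in bone act on the osteoblasts, which build bone, and on the osteoclasts, which resorb it, mainly through secreted factors. Parathyroid hormone-related protein (PTHLH) makes osteoblasts display RANKL (TNFSF11), the ligand that drives osteoclast formation, and osteoprotegerin (TNFRSF11B) is the soluble decoy receptor that captures RANKL. Endothelin 1 (EDN1) stimulates osteoblasts, and noggin (NOG) blocks the bone morphogenetic proteins (BMPs) that do so. Osteopontin (SPP1) and bone sialoprotein (IBSP) are integrin-binding proteins of the bone matrix, RUNX2 is the transcription factor that starts the osteoblast programme, and CXCR4 is the receptor by which cells follow the chemokine CXCL12 into the marrow.

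Total counts per library ran from 31450648 to 37041330. METTL3 had 1682 and 1379 counts in shNC and 269 and 313 in sh812, which matches the reading of the labels. Markers listed for PC3 epithelium were KRT8, KRT18, KRT19, EPCAM, CDH1 and CD44. They summed to 1215 to 1338 CPM, the count scaled to a common library size, in shNC and 1322 to 1391 in sh812. Within this sum CD44 was at 90.7% of shNC, and KRT8, KRT18, KRT19, EPCAM and CDH1 were at 107% to 148%. The 8 osteoblast and osteocyte markers summed to 52.2 to 56.3 CPM in shNC and 48.2 to 53.7 in sh812, mostly from COL1A1, COL1A2 and PHEX. These moved in different directions, with COL1A1 at 82.9% of shNC, PHEX at 90.7% and COL1A2 at 142%. SP7 and DMP1 had 0 counts in all 4 libraries. The 7 osteoclast markers summed to 35.0 to 39.2 CPM in shNC and 38.2 to 38.6 in sh812, mostly from TNFRSF11A and CTSK, with CALCR and OCSTAMP at 0. A list of 6 haematopoietic markers summed to 0.684 to 1.13 CPM in a library. The list of 7 luminal prostate markers, of which KLK2 and KLK3 had 0 counts throughout, summed to 54.9 to 55.6 CPM in shNC and 35.9 to 43.3 in sh812. The list of 7 stromal and endothelial markers summed to 28.9 to 29.3 CPM in shNC and 38.5 to 46.0 in sh812. Most of it was PECAM1, at 23.8 and 23.7 CPM in shNC and 32.9 and 38.5 in sh812. On the same list DCN was at 67.8% of shNC, and VWF and CDH5 had 0 to 6 counts a library. The part of these lists in the results was not tested.

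Of the 9 factors, 6 had enough counts to be tested. PTHLH was lower in sh812, and TNFRSF11B was higher by a call that depended on the processing. RUNX2, EDN1, NOG and CXCR4 were not called, SPP1 was too rare to test, and IBSP and TNFSF11 had 0 counts in every library. Calls were made with the quasi-likelihood test of edgeR at a Benjamini-Hochberg threshold of 0.05 over the 16802 genes tested. That rule called 10.8% of all genes tested, 5.43% higher and 5.42% lower, against 1 higher and 1 lower of the 6 factors. The groups did not overlap in CPM for 5 of the 6 factors and for 53.6% of all genes tested, so a gap between the groups is common in this table. The median log2 fold change of the 6 factors was -0.17, and that of all genes tested was -0.0056. The 6 factors include CXCR4, which passed the low-count filter through its shNC libraries alone.

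**Figure D1:**
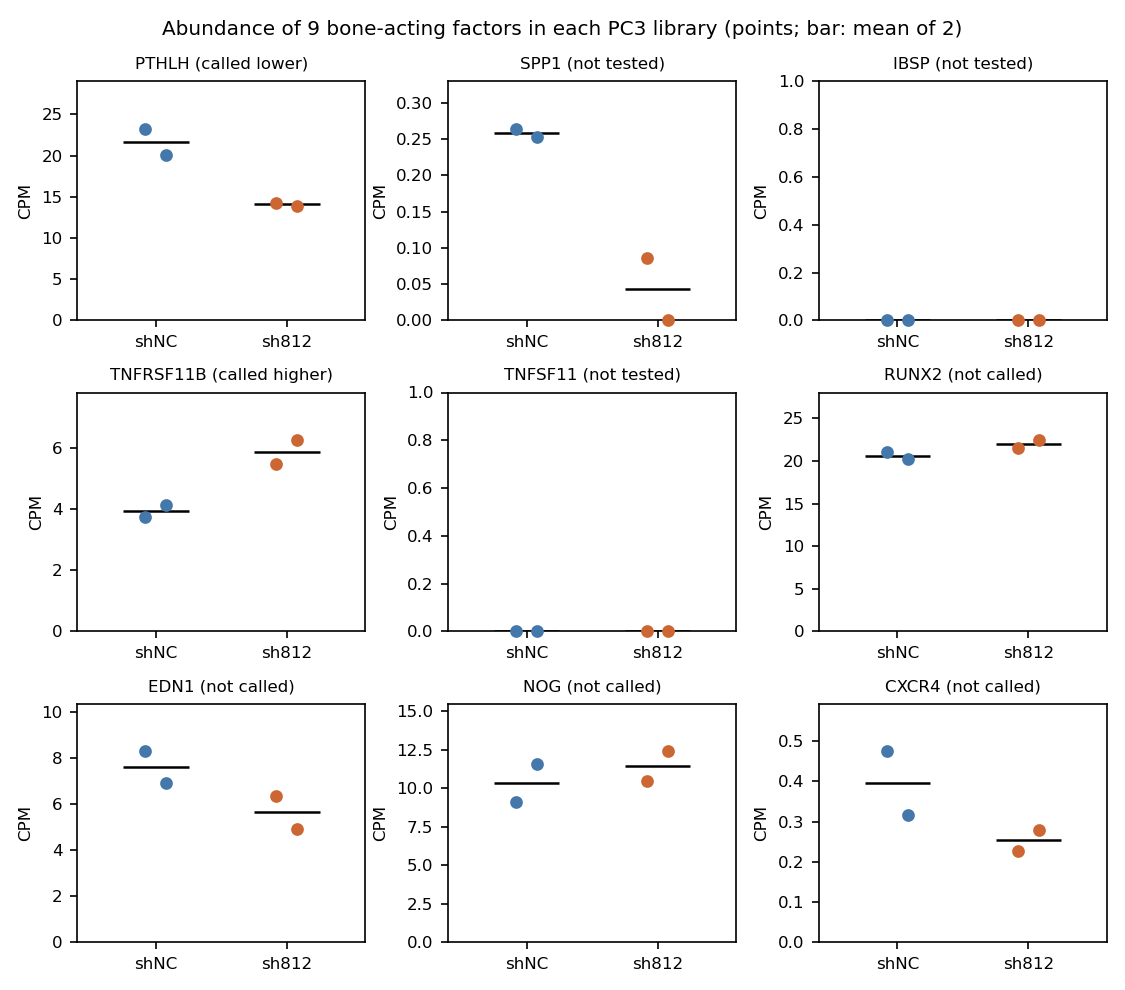
CPM (y axis, linear from 0, scaled separately for each gene) of the 9 factors in each of the 4 libraries, with points for libraries and bars for the mean of 2. PTHLH sits at 20.1 to 23.2 in shNC and 13.9 to 14.2 in sh812, TNFRSF11B at 3.74 to 4.14 and 5.50 to 6.26, and IBSP and TNFSF11 lie at 0 throughout.

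PTHLH encodes parathyroid hormone-related protein, the tumour-derived hormone of humoral hypercalcaemia. GENCODE 29 places the gene (ENSG00000087494) at 27958084 to 27972705 of chromosome 12 in GRCh38, minus strand. Replicates 1 and 2 had 880 and 635 counts in shNC, and 500 and 499 in sh812. Both sh812 libraries lay below both shNC libraries, and the sh812 pair was almost identical. The mean was 21.6 ± 2.21 in shNC against 14.1 ± 0.212 CPM in sh812 (SD, n = 2 each), so sh812 held 65.1% of the control level. On the log2 scale PTHLH fell by 0.62 (SE 0.11, 95% confidence interval of the change -0.85 to -0.39, adjusted p = 0.000725 in edgeR). In bulk RNA, fewer cells that express the gene and less RNA per cell cannot be told apart. Its adjusted p stayed under 0.05 when any library was left out, with log2 fold changes from -0.71 to -0.51. In the annotation, 353 exon bases of PTHLH are shared with AC008011.2 on the opposite strand, and that gene had 17, 6, 4 and 10 counts in the same library order.

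The promoter window of PTHLH is shown because this is the factor whose decrease was called. RefSeq (GRCh38.p14) places a PTHLH start inside the GENCODE gene, downstream of the GENCODE start at 27972705. The letters around that GENCODE start were not searched. The window of 250 bases before and 50 after the RefSeq start is chr12:27969927-27970226, minus strand. Capitals mark GGGCGG read on either strand (here CCGCCC), the GC box bound by SP1-type factors.
PTHLH promoter: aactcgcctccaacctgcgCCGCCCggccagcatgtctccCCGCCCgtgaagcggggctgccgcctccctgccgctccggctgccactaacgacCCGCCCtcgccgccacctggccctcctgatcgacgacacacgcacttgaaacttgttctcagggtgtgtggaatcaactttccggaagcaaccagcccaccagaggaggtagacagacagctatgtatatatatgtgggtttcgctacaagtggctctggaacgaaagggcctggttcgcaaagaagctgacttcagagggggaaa
The window holds the GC box 3 times, and 45% of 35116 RefSeq promoter windows of 300 bases hold it at least once. On both strands, the window had no match to TATAAA, which is the box named for those letters. It also had none to TGANTCA, the AP-1 motif, or to TGTGGT, the core bound by RUNX factors. A match is a description of the letters and not of binding.

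Most other genes of the PTHrP pathway were rare or not called. The receptor gene PTH1R had 4 and 4 counts in shNC and 0 and 2 in sh812, and was not tested. Of 12 other genes on the list, 6 were tested, 0 were called higher and 1 lower (16.7% called, against 10.8% of all genes tested). That gene, PRKAR1A, a regulatory subunit of the cyclic AMP-dependent kinase, was at 403 and 405 CPM in shNC and 350 and 348 in sh812 (log2 fold change -0.21, adjusted p = 0.0152 in edgeR). The call of PRKAR1A was lost when sh812 replicate 1 (adjusted p = 0.267 in edgeR) or 2 (0.257) was left out. With each library's trend on gene length removed, it was 0.0545.

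TNFRSF11B, the osteoprotegerin gene (ENSG00000164761), spans 118923557 to 118952200 of chromosome 8 on the minus strand. It had 142 and 131 counts in shNC and 193 and 224 in sh812. Both sh812 libraries lay above both shNC libraries. The mean was 3.94 ± 0.282 in shNC against 5.88 ± 0.538 CPM in sh812 (SD, n = 2 each), or 149% of control. This rise of 0.58 on the log2 scale (SE 0.19, 95% confidence interval 0.19 to 0.96, adjusted p = 0.0455 in edgeR) was close to the threshold. The call depended on the processing. The adjusted p was 0.0663 with library size alone, 0.0610 with limma-voom, 0.106 with DESeq2 and 0.0686 with the length trend removed. It was 0.133 without shNC replicate 1, 0.171 without sh812 replicate 1 and 0.344 without sh812 replicate 2. The direction held in each of these settings, with log2 fold changes from 0.48 to 0.67.

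The ligand that osteoprotegerin captures was not seen. TNFSF11 (RANKL, ENSG00000120659, plus strand of chromosome 13, 42562736 to 42608013) had 0 counts in all 4 libraries, where 3 counts, the limit a count of 0 allows, would be 0.0791 to 0.0949 CPM. No ratio of RANKL to osteoprotegerin can therefore be given for these cells. The signalling receptor TNFRSF11A (RANK) was at 30.7 and 34.9 CPM in shNC and 34.5 and 34.2 in sh812 (log2 fold change 0.07, SE 0.09, adjusted p = 0.709 in edgeR). Of 13 other genes of the RANKL and osteoprotegerin list, 12 were tested, 1 was higher and 1 lower (16.7%, against 10.8% of all genes). IL11, a cytokine that promotes osteoclast formation, was at 10.3 and 13.6 CPM in shNC and 15.1 and 16.5 in sh812 (log2 fold change 0.41, adjusted p = 0.0485 in edgeR). TNFRSF10B, a receptor for TRAIL, the other ligand of osteoprotegerin, was at 166 and 159 CPM in shNC and 143 and 144 in sh812 (log2 fold change -0.18, adjusted p = 0.0495 in edgeR). Both of these calls were also close to the threshold. The adjusted p of IL11 rose to 0.373 without shNC replicate 1, where its log2 fold change was 0.22, to 0.182 without sh812 replicate 1 and to 0.338 without sh812 replicate 2. With all 4 libraries, IL11 was not called with library size alone (adjusted p = 0.0846), in DESeq2 (0.0969) or with the length trend removed (0.0796). That of TNFRSF10B rose to 0.0667, 0.381 and 0.329 without the same libraries, and the gene passed in 5 of 10 settings that kept all 4.

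EDN1 encodes endothelin 1, the osteoblast-stimulating peptide of prostate cancer bone lesions (ENSG00000078401, plus strand of chromosome 6, 12290363 to 12297194). It had 315 and 219 counts in shNC and 224 and 177 in sh812. In CPM these were 8.30 and 6.92 against 6.38 and 4.95, so the groups did not overlap but lay close together. EDN1 was not called (log2 fold change -0.43, SE 0.17, adjusted p = 0.109 and unadjusted p = 0.0187 in edgeR). Its 95% confidence interval, before adjustment for the number of genes, ran from -0.78 to -0.078. Without shNC replicate 2 it was called (log2 fold change -0.55, adjusted p = 0.0219 in edgeR), and without any of the other 3 libraries it was not.

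The EDN1 promoter is shown beside that of PTHLH because both ligands were measured at lower means in sh812. Of the windows RefSeq gives for EDN1, the one whose start is nearest to the GENCODE start is chr6:12290111-12290410, plus strand, and capitals mark TATAAA.
EDN1 promoter: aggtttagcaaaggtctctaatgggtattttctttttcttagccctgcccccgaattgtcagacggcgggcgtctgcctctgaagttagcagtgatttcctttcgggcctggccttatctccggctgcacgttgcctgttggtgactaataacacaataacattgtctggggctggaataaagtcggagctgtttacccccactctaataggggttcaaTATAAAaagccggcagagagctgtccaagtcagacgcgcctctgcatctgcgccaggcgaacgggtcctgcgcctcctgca
The TATA box begins 31 bases before the start, and 11.5% of the 35116 windows hold these letters anywhere on either strand. The GC box, AP-1 and RUNX letters had no exact match in this EDN1 window. Only exact matches were counted in both windows shown, so a site that differs by a letter was not counted.

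The rest of the endothelin system was not called. Of 8 other genes, 3 were tested, 0 were called higher and 0 lower. The converting enzyme ECE1 was at 201 and 204 CPM in shNC and 179 and 186 in sh812 (log2 fold change -0.15, SE 0.06, adjusted p = 0.100 in edgeR, unadjusted p = 0.0166). The receptor EDNRA was at 4.38 and 4.93 CPM in shNC and 4.79 and 3.72 in sh812, where the groups overlapped. The receptor EDNRB had 1 count in shNC replicate 1 and 0 in the other libraries.

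CXCR4 (ENSG00000121966, minus strand of chromosome 2, 136114349 to 136118165) was close to the limit of detection. It had 18 and 10 counts in shNC and 8 and 10 in sh812. After scaling for library size, CXCR4 passed the low-count filter through its shNC libraries alone. Its log2 fold change was -0.64 (SE 0.70, 95% confidence interval -2.08 to 0.79, adjusted p = 0.631 in edgeR), and no difference was detectable at this depth. Its ligand CXCL12 was similarly rare, with 16, 18, 12 and 14 counts in the order shNC replicates 1 and 2, then sh812 replicates 1 and 2 (adjusted p = 0.742 in edgeR).

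The second CXCL12 receptor was more abundant and was called. ACKR3, a scavenging receptor that removes CXCL12, was at 10.9 and 12.5 CPM in shNC and 6.10 and 8.16 in sh812 (log2 fold change -0.71, SE 0.15, adjusted p = 0.00342 in edgeR). Without sh812 replicate 1, the library where ACKR3 was lowest, the adjusted p in edgeR was 0.167 (log2 fold change -0.52). DPP4, a surface protease that inactivates CXCL12, was at 18.6 and 18.2 CPM in shNC and 27.5 and 29.3 in sh812 (log2 fold change 0.63, SE 0.10, adjusted p = 0.000162 in edgeR). DPP4 kept its call with each library left out. These were the 2 calls among 7 tested genes of 9 others on that list (28.6%, against 10.8% of all genes).

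SPP1 and IBSP stand near each other in the cluster of bone matrix genes on chromosome 4, at 87975650 to 87983426 (ENSG00000118785) and 87799581 to 87812435 (ENSG00000029559), both on the plus strand. SPP1 had 10 and 8 counts in shNC and 3 and 0 in sh812. It did not pass the low-count filter. The summed counts of sh812 were 16.4% of those of shNC after scaling, with an exact 95% interval of 3.09% to 56.0% that covers counting error only. If both reads of a pair were counted, halved counts give 21.8% and a wider interval of 2.29% to 105%, which includes 100%, the level of shNC. Without the filter, its adjusted p in edgeR was 0.415, and the gene was not called. IBSP had 0 counts in all 4 libraries, as did the family members DMP1, DSPP and MEPE.

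Among the receptors of these matrix proteins, the integrin chains ITGB1, ITGAV and ITGB5 were lower. Of 13 other genes on the list, 9 were tested, 1 was called higher and 4 lower (55.6%, against 10.8% of all genes). ITGB1, the integrin beta 1 chain, was at 2923 and 2750 CPM in shNC and 1919 and 1910 in sh812 (log2 fold change -0.57, SE 0.05, adjusted p = 9.97e-08 in edgeR). ITGAV, the alpha V chain of the osteopontin receptor, was at 110 and 93.8 CPM in shNC and 83.5 and 83.5 in sh812 (log2 fold change -0.29, adjusted p = 0.0121 in edgeR). Its partner ITGB5 was at 50.1 and 57.0 CPM against 40.9 and 40.4 (log2 fold change -0.40, adjusted p = 0.0025 in edgeR).

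The other classical partner, ITGB3, was much rarer, with 70 and 74 counts in shNC and 43 and 50 in sh812 (log2 fold change -0.67, SE 0.33, adjusted p = 0.209 in edgeR), and was not called. CD44, a further osteopontin receptor, had a log2 fold change of -0.14 (adjusted p = 0.115 in edgeR). Tenascin C (TNC), a matrix protein, had a log2 fold change of -0.36 (adjusted p = 0.000153 in edgeR). MMP3, a protease that cleaves osteopontin, was at 2.95 and 4.11 CPM in shNC and 7.63 and 8.19 in sh812 (log2 fold change 1.17, SE 0.19, adjusted p = 0.000162 in edgeR). ITGB1, TNC and MMP3 kept their calls with each library left out. ITGB5 had an adjusted p of 0.0663 without sh812 replicate 1 and 0.0729 without sh812 replicate 2, and ITGAV one of 0.0955, 0.185 and 0.167 without shNC replicate 1, sh812 replicate 1 and sh812 replicate 2. ITGAV had a log2 fold change of -0.17 without shNC replicate 1.

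RUNX2 (ENSG00000124813, plus strand of chromosome 6, 45328157 to 45664349) was not called. It stood at 21.0 and 20.2 CPM in shNC and 21.5 and 22.4 in sh812, which is 106% of control. The difference did not pass the test (log2 fold change 0.09, SE 0.10, 95% confidence interval -0.12 to 0.30, adjusted p = 0.655 in edgeR). Genes on the opposite strand, SUPT3H among them, overlap the RUNX2 locus, but they share 0 exon bases with it in this annotation. Its DNA-binding partner CBFB was at 82.6 and 82.4 CPM in shNC and 89.7 and 90.9 in sh812 (log2 fold change 0.13, adjusted p = 0.222 in edgeR). SP7, the osteoblast factor that RUNX2 activates, had 0 counts in all 4 libraries.

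Of 20 other genes of the RUNX2 and osteoblast list, 15 were tested, 1 was called higher and 2 lower (20%, against 10.8% of all genes). The paralogue RUNX3 had 204 and 122 counts in shNC and 88 and 94 in sh812 (log2 fold change -0.85, SE 0.23, adjusted p = 0.016 in edgeR). SPARC (osteonectin), a matrix protein that binds collagen, was at 13.4 and 17.2 CPM in shNC and 10.6 and 11.7 in sh812 (log2 fold change -0.45, adjusted p = 0.0301 in edgeR). CDH11, the osteoblast cadherin, was at 391 and 380 CPM in shNC and 455 and 438 in sh812 (log2 fold change 0.21, adjusted p = 0.0168 in edgeR). Each of the 3 lost its call when either sh812 library was left out. RUNX3 also lost it without shNC replicate 1 (log2 fold change -0.59, adjusted p = 0.185), and SPARC without shNC replicate 2 (log2 fold change -0.26, adjusted p = 0.233). SPARC was also not called in DESeq2 with all 4 libraries (adjusted p = 0.0653).

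NOG (ENSG00000183691, plus strand of chromosome 17, 56593699 to 56595590), a gene of a single exon, did not differ detectably. It had 346 and 366 counts in shNC and 368 and 444 in sh812. In CPM, 9.12 and 11.6 stood against 10.5 and 12.4, so the groups overlapped. The difference (log2 fold change 0.15, SE 0.14, 95% confidence interval -0.14 to 0.44, adjusted p = 0.571 in edgeR) turned negative without shNC replicate 1 (-0.017). The ligands noggin captures were low. BMP2 was at 5.67 and 5.63 CPM in shNC and 5.07 and 5.98 in sh812, BMP4 at 6.54 and 6.36 against 5.27 and 6.15, and neither was called. BMP6 had 34, 27, 33 and 14 counts and BMP7 had 4, 2, 0 and 0 in the same order.

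Of 30 other genes of the BMP list, 23 were tested, 2 were called higher and 4 lower (26.1%, against 10.8% of all genes). NBL1, a further BMP antagonist, had a log2 fold change of 0.31 (adjusted p = 0.00586 in edgeR), and ID1, a BMP target, one of 0.22 (adjusted p = 0.0172 in edgeR). The target ID2 had a log2 fold change of -0.45 (adjusted p = 0.00971 in edgeR), so the 2 ID genes that were called moved in opposite directions. The inhibitory SMAD gene SMAD7 had a log2 fold change of -0.84 on 190 and 128 counts in shNC and 90 and 90 in sh812 (adjusted p = 0.0156 in edgeR). GDF15, a distant TGF-beta family member, had a log2 fold change of -0.46 (adjusted p = 0.00072 in edgeR), and the type II receptor BMPR2 one of -0.29 (adjusted p = 0.0186 in edgeR). All 6 lost the call without sh812 replicate 1, and all but GDF15 without sh812 replicate 2. SMAD7 also lost it without shNC replicate 1 (adjusted p = 0.107). With the length trend removed, the adjusted p was 0.152 for ID1, whose log2 fold change became 0.13, and 0.0977 for BMPR2.

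A last list held other secreted or surface factors by which tumour cells act on bone, and IL6, LIF and IGFBP5 were the most reduced of its abundant genes. Of 34 genes on this list, 29 were tested, 3 were called higher and 11 lower (48.3%, against 10.8% of all genes). Among the lower genes were IL6 and LIF, cytokines of the gp130 family that act on both osteoblasts and osteoclasts. IL6 was at 50.8 and 50.8 CPM in shNC and 21.8 and 17.97 in sh812 (log2 fold change -1.35, SE 0.10, adjusted p = 4.27e-10 in edgeR). LIF was at 215 and 196 CPM in shNC and 126 and 132 in sh812 (log2 fold change -0.67, SE 0.06, adjusted p = 8.13e-08 in edgeR). IGFBP5, a binding protein for insulin-like growth factors that is stored in bone matrix, was at 46.4 and 48.9 CPM in shNC and 20.9 and 25.5 in sh812 (log2 fold change -1.04, SE 0.10, adjusted p = 5.48e-08 in edgeR).

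The chemokine gene CCL2 had 20 and 18 counts in shNC and 2 and 0 in sh812. CCL2 entered the test through its shNC counts alone, since both sh812 counts lay under the filter's minimum count of 10. Its summed level in sh812 was 5.16% of that in shNC, with an exact 95% interval of 0.604% to 19.98% for counting error alone (adjusted p = 0.00872 in edgeR, and 0.140 without sh812 replicate 2). Halved counts widen the interval to 0.124% to 32.5%. With halved counts CCL2 no longer passed the filter and so had no call. The same held with a mean CPM of at least 1, and DESeq2 gave it no adjusted p. CCL2 was called in the 7 other settings that kept all 4 libraries. CCN1, CCN2, JAG1, FGF5, ICAM1, IL1B and CXCL8 were also called lower, with log2 fold changes from -0.51 in FGF5 to -0.24 in CXCL8. CCN1 and CCN2 are matricellular proteins, JAG1 is a Notch ligand that acts on osteoclast precursors, and IL1B and CXCL8 are inflammatory cytokines. Of these 7 genes, CCN1 kept its call with each library left out, and the other 6 lost it without at least 1 of the sh812 libraries.

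The 3 genes called higher were PTGS2, LCN2 and SEMA4D. PTGS2, the inducible enzyme of prostaglandin E2 synthesis, was at 144 and 142 CPM in shNC and 205 and 247 in sh812 (log2 fold change 0.66, SE 0.07, adjusted p = 5.51e-07 in edgeR). Lipocalin 2 (LCN2) was at 171 and 188 CPM in shNC and 255 and 269 in sh812 (log2 fold change 0.55, adjusted p = 1.66e-06 in edgeR). SEMA4D, a semaphorin that restrains osteoblasts, was at 6.96 and 6.80 CPM in shNC and 10.2 and 10.5 in sh812 (log2 fold change 0.58, adjusted p = 0.009 in edgeR), and lost its call without sh812 replicate 1 (adjusted p = 0.102) or 2 (0.122).

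Over the 8 lists together, 104 of 139 genes other than the 9 were tested, 9 were called higher and 24 lower (31.7%, against 10.8% of all genes). Their median log2 fold change was -0.11, against -0.0056 for all genes tested. These genes were listed for their known roles in bone and with earlier results of these data known, and no test of the lists as sets was made. Leaving out a sh812 library left 8 to 10 of them called lower and 4 called higher, and 10 of the 33 kept their call with each of the 4 libraries left out in turn.

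**Figure D2:**
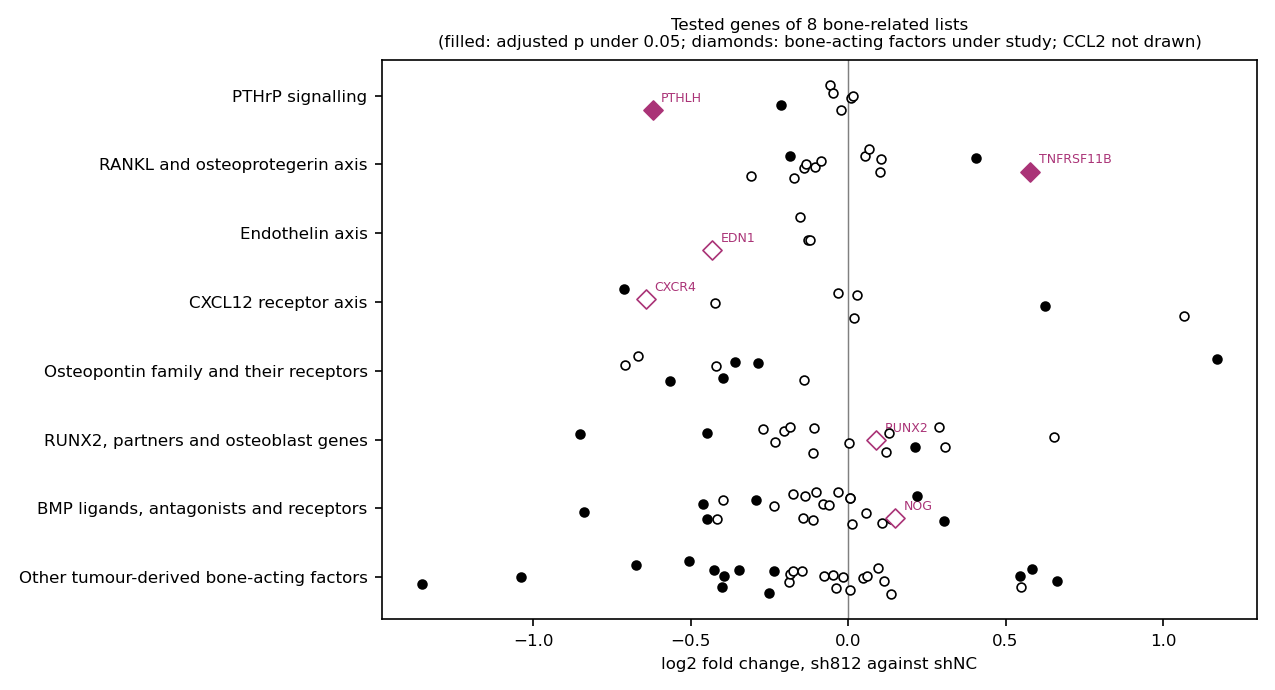
Log2 fold change of sh812 against shNC (x axis) for the tested genes of each of the 8 lists (rows, vertical spread only to separate points), with filled symbols for an adjusted p under 0.05 and diamonds for the factors under study. Among the diamonds PTHLH (-0.62) and TNFRSF11B (0.58) are filled, and CCL2, which had 2 and 0 counts in sh812, is not drawn.

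Levels of the 9 genes were compared with each other as CPM per kilobase of merged exons. In shNC the order was PTHLH at 6.41 ± 0.654, NOG at 5.47 ± 0.916, EDN1 at 3.75 ± 0.480, RUNX2 at 2.52 ± 0.0692 and TNFRSF11B at 1.39 ± 0.0997 CPM per kilobase (SD, n = 2). PTHLH and NOG did not differ beyond their spread there. In sh812 NOG stood first at 6.05 ± 0.719, followed by PTHLH at 4.17 ± 0.0628, EDN1 at 2.79 ± 0.499, RUNX2 at 2.68 ± 0.0828 and TNFRSF11B at 2.08 ± 0.190 CPM per kilobase (SD, n = 2). EDN1 and RUNX2 did not differ beyond their spread in sh812. CXCR4 and SPP1 lay far below, at 0.178 and 0.111 CPM per kilobase in shNC. Averaged over the 4 libraries, NOG exceeded 61.5% of all genes tested on this scale, PTHLH 59.7% and TNFRSF11B 38.6%. In that average NOG was the highest of the 9, while in shNC PTHLH had the higher mean. The order depends on the length used. Merged exons span 3.377 kb for PTHLH and 8.192 kb for RUNX2, whose longest coding transcripts have 1891 and 5698 bases. For NOG both lengths are 1892 bases. In CPM without a length, PTHLH stood above NOG, at 21.6 against 10.3 in shNC and 14.1 against 11.4 in sh812. An order per kilobase of transcript was not computed.

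For the 2 called factors, the genes most alike were those with the smallest Euclidean distance between centred log2 CPM profiles over the 4 libraries, among the other 10419 or 10420 protein-coding genes with a mean of at least 5 CPM. With 4 libraries this only describes the order and size of the values. Nearest to PTHLH were CPEB4 (distance 0.0491, at 61.5, 55.8, 38.7 and 37.8 CPM in the order shNC 1 and 2, sh812 1 and 2) and SHANK2 (distance 0.0669). Nearest to TNFRSF11B were PDE4A (distance 0.0647) and TMEM158 (distance 0.0733, at 132, 148, 206 and 224 CPM in the same order).

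The enzyme that was knocked down methylates adenosine mainly in a short consensus whose commonest core is GGACT in DNA letters, and m6A is known to be dense near stop codons. The longest coding transcript of each factor in GENCODE 29 was therefore searched for GGACT on its own strand. The windows below are those nearest to the stop codon in the tested factors for which a sequence is shown, with the core in capitals. Methylation itself was not measured.
PTHLH: gattatatgtGGACTaaatatctgt
EDN1: tgttccgtatGGACTtggaagccct
RUNX2: tcagagaggtGGACTccaggttcag
NOG: cttttgtagaGGACTttttaaaagc
CXCR4: tctcgtggtaGGACTgtagaaaagg
The PTHLH match lies in the 3′ untranslated region, 978 bases past the stop codon (from its first base to the A of the core), and 2 of the 9 coding transcripts of the gene hold a match. The EDN1 match lies in the coding part, 385 bases before the stop codon. The RUNX2, NOG and CXCR4 matches lie 349, 465 and 247 bases past it, and TNFRSF11B has a match 160 bases past it.

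Matches were few in both called factors, as they were in EDN1 and NOG, which were not called. PTHLH, which was lower, had 1 match in 1891 bases (0.529 per kilobase), and TNFRSF11B, which was higher, had 1 in 2402 bases (0.416 per kilobase). Of the tested factors that were not called, EDN1 had 1 (0.492 per kilobase) and NOG had 1 (0.529 per kilobase). RUNX2 had 5 in 5698 bases (0.878 per kilobase) and CXCR4 had 2 (1.055 per kilobase). Of the untested factors, SPP1 had 2, IBSP had 1 and TNFSF11 had 0. Among 13237 protein-coding genes tested, 92.4% had at least 1 match and the median was 0.925 per kilobase. That median was 0.898 per kilobase for genes called lower and 0.934 for genes called higher. The share with at least 1 match was 96.1% and 85.6%, with median transcript lengths of 5001 and 2232 bases. These counts describe the letters of the longest transcript, which may not be the one PC3 cells use.

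**Figure D3:**
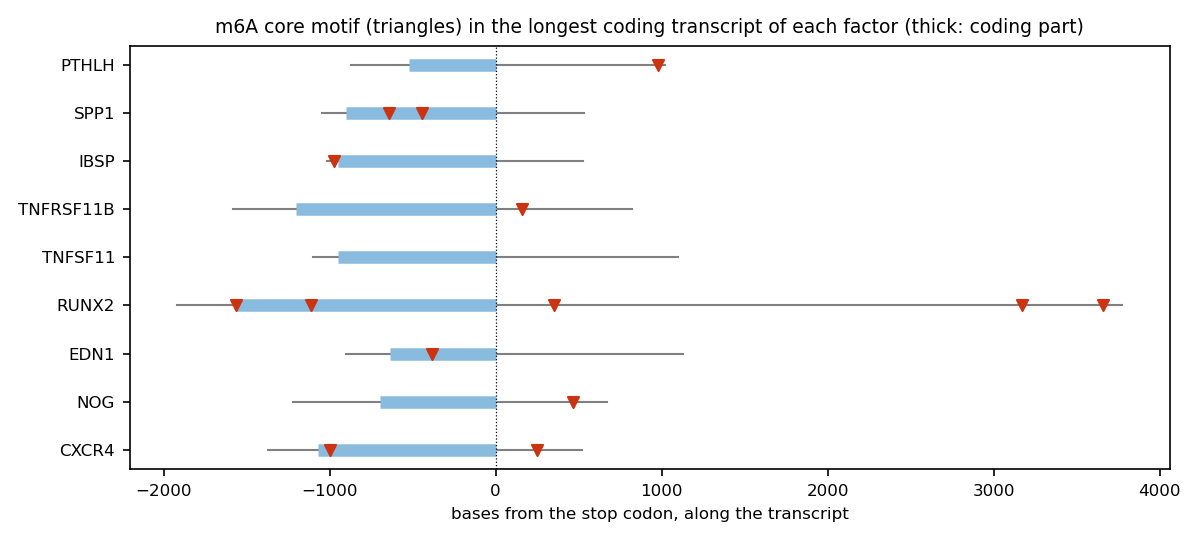
Position of the m6A core motif (triangles) along the longest coding transcript of each of the 9 factors, in bases from the stop codon (x axis, 0 at the stop codon, coding part as a thick line). The PTHLH match stands 978 bases past the stop codon and that of TNFRSF11B 160 bases past it, while TNFSF11 has none.

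The results of the 6 tested factors were compared under other normalizations, filters and tools. PTHLH passed the test in each of the 10 other settings that kept all 4 libraries, of which halved counts were chosen after seeing the data, with log2 fold changes from -0.67 to -0.62. TNFRSF11B passed in 6 of its 10, and RUNX2, EDN1 and NOG in 0 of theirs. The share of all genes called was 10.6% with RLE factors, 10.9% with upper quartile factors, 11.2% with library size alone and 6.49% without the low-count filter. It was 15% with a mean CPM of at least 1, 12.2% in DESeq2, 11.3% in limma-voom, 11.9% with the replicate block, 9.9% with the length trend removed and 13.4% with halved counts. Some differences between libraries varied with gene length. Across 12257 genes, the Spearman correlation of the log2 difference with merged exon length was -0.30 between the groups and also -0.30 between the 2 shNC libraries, but 0.031 between the 2 sh812 libraries. Genes are not independent, and the value describes the libraries. PTHLH, at 3.38 kb of merged exons against a median of 4.42 kb, had a log2 fold change of -0.65 with this trend removed (adjusted p = 0.000444 in edgeR), RUNX2, at 8.19 kb, one of 0.15, and EDN1, at 2.03 kb, one of -0.50 (adjusted p = 0.0653 in edgeR).

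**Figure D4:**
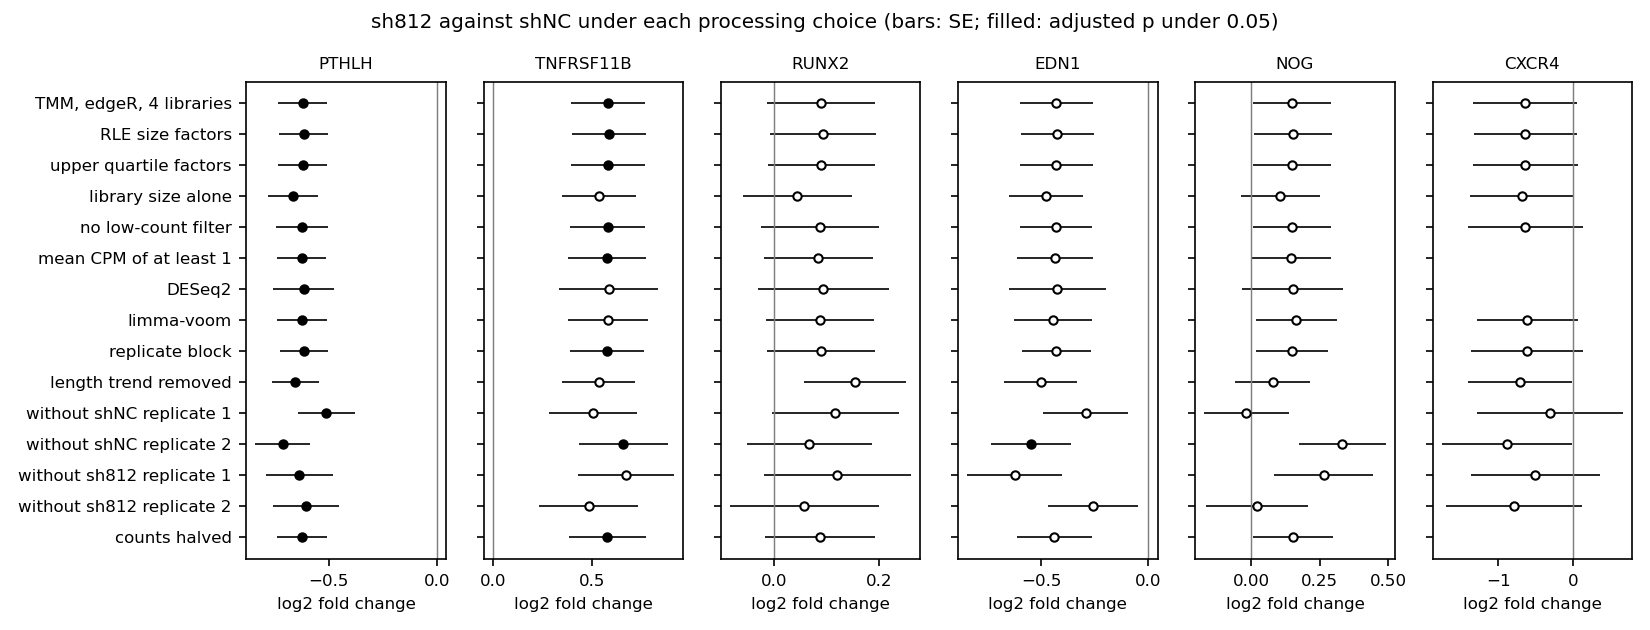
Log2 fold change of sh812 against shNC (x axis, own scale for each gene) of the 6 tested factors under each processing choice (rows), with bars for the standard error and filled symbols for an adjusted p under 0.05. PTHLH is filled in every row, TNFRSF11B in some, and EDN1 only without shNC replicate 2.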

How the data were processed

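The labels and the processing notes were the sources for the upstream steps. Per the submitters' processing notes, fastp, STAR 2.7.1a, featureCounts and DESeq2 were used with build hg38. The annotation release and the strand setting are not given in the sources used here. Per the labels' protocols, the libraries were stranded (dUTP) and read as pairs. The deposited table holds raw counts per gene that the authors had not normalized. Of the nonzero counts from 1 to 20, 69.8% were even, as when both reads of a pair are counted, so a small count stands for fewer fragments. Intervals and limits cover counting error only.

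All 4 libraries were fitted with edgeR 4.0.16 in R 4.3.3 (filterByExpr by group with its minimum count of 10, TMM, glmQLFit and glmQLFTest, prior count 0.125, no covariate). The filter kept 16802 genes and 6 of the 9 factors. SE was derived from the F statistic. CPM uses TMM-adjusted library sizes. Replicates differed by more than sampling noise, with a mean chi-square per gene (about 1 where only sampling differs, or 2 if both reads of a pair were counted) of 8.43 in shNC and 4.51 in sh812. Positions, exon lengths and transcripts come from GENCODE 29 (GRCh38), promoters from RefSeq (GRCh38.p14).

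The 9 factors and the 8 lists were chosen with earlier results of these data known. All 180 listed genes were found in the table. The genes named are the 9, METTL3, every called list gene, set partners of the 9, and the 2 most alike genes for each called factor. Alternatives were RLE, upper quartile and unscaled library sizes, no filter, a mean CPM of at least 1, DESeq2 1.42.0, limma-voom (limma 3.58.1), the replicate block, removal of the length trend (lowess span 0.3), a prior count of 2, each library left out and halved counts. The script was tested on simulated counts for sh812 against shNC (16441 genes tested), where it called 71.4% of the genes given a log2 change of 1 and 51.0% of those given 0.5, and 8 of its 128 calls were false.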

Additional observations from a re-analysis of the deposited data

How the results depend on the processing

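PTHLH kept its direction and call in each alternative run, and METTL3 did too. Calling 1 factor higher (TNFRSF11B) turned to 0 with library size alone (log2 fold change 0.53), DESeq2 (0.58), limma-voom (0.58) and the length trend removed (0.53). Library size alone called 561 genes higher and 1328 lower, so 29.7% of calls were higher against 50.1% with TMM. What causes this was not tested. Halved counts, an alternative chosen after seeing the data, changed no factor's call (PTHLH -0.62, TNFRSF11B 0.58), but CXCR4 no longer passed the filter. CXCR4 also gave no value with a mean CPM of at least 1 and no adjusted p in DESeq2.

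With 1 library left out, the lone library of a group is assumed to vary like the pair. Log2 fold changes then ran from -0.71 to -0.51 (PTHLH), 0.48 to 0.67 (TNFRSF11B), 0.057 to 0.12 (RUNX2), -0.63 to -0.26 (EDN1), -0.017 to 0.33 (NOG, negative without shNC replicate 1), -0.89 to -0.31 (CXCR4) and -2.52 to -2.33 (METTL3). Factors called higher ran from 0 to 1 and lower from 1 to 2. List genes ran from 4 to 11 higher and 8 to 26 lower, and all genes from 130 to 1743 higher and 183 to 1583 lower. For all genes, the lowest counts came without sh812 replicate 1 and the highest without shNC replicate 2.

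Both groups use the replicate numbers 1 and 2, and no label ties equal numbers to a common origin. Across genes, deviations from the group means correlated at 0.0164 (Pearson) between equal numbers, so no pairing was assumed. The replicate block gave 1003 genes higher and 998 lower, PTHLH -0.62 and TNFRSF11B 0.57, and changed no factor's call, but TNFRSF10B was no longer called (adjusted p = 0.0503). Depth limits what can be said of SPP1 and CXCR4, at 0 to 18 counts a library.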
